A study of Mus musculus with 10 samples.

Results

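Anks6, Invs and Dnaic1 are 3 genes of the cilium that lie close together on mouse chromosome 4. They were followed in colon RNA from mice lacking Vista and from wild-type (WT) mice, among 55416 rows of 2 count tables deposited by the authors. Members were found as the rows of those 3 gene names, using Ensembl identifiers named by GENCODE M21, an annotation of the mm10 build. They were chosen by their levels in knockout and WT libraries, which were known in advance. Of the 3, Anks6 and Dnaic1 were among the 548 of 9736 tested rows (5.63%) that passed an adjusted p of 0.05 between genotypes in edgeR over all libraries, or among 22 of 260 (8.46%) in their own stretch of chromosome 4. In a fit without WT4 and WT5 that also took no account of the table, neither passed. Anks6 also did not pass in 6 of 10 fits with 1 library left out. Genotype differences of the members are given as a description, with standard errors and no p-values.

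All mice drank 2% dextran sulfate sodium (DSS), a chemical that injures the colonic lining, for 7 days, and whole colon was taken for RNA sequencing. There were 5 libraries per genotype, 3 of each in the first table (knockout KO1 to KO3, WT1 to WT3) and 2 of each in the second (KO4 and KO5, WT4 and WT5). Vsir encodes Vista, a checkpoint protein that restrains T cells. The labels call the genotype a Vista knockdown for the first table and Vista-/- for the second, the design text calls all of them Vista-/-, and they were handled as 1 knockout group. No group without DSS was analysed here, and the labels used give no strain, sex or age. The design text calls its replicates biological, but the later libraries are not tied to animals, so errors measure the spread between libraries.

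Library totals ran from 3691322 to 4071238 counts. Row names could be trusted only in parts of the genome. On chromosome 4 from position 1 to 59904737 in mm10, the end of Snx30, 16 of 18 genes of families that nearly every cell uses held 500 counts or more, with a median of 6541 counts. Outside this and 2 smaller regions only 24.3% of 881 such genes did, with a median of 22. The Vsir row on chromosome 10 lies outside, with 27 to 97 counts in knockout and 0 to 82 in WT libraries, so it does not check the genotype. WT4 and WT5 stood apart from the other 8 libraries on principal component 1 of the log2 levels, at 44.8 and 48.8 against −26.0 to 5.99. In the trusted part of chromosome 4 the labelled tissue was visible: Cdh17, an intestinal cadherin, averaged 3383 CPM (counts scaled to 1000000 in each library) and Klf4, an epithelial transcription factor, 2582 CPM.

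Cilia are hair-like projections built on a basal body. Most cells can carry a single immotile primary cilium, which works as a signalling antenna, while multiciliated cells of airway, oviduct and brain ventricle beat many motile ones. Invs encodes inversin, which marks a segment at the base of the primary cilium called the inversin compartment and when mutated causes nephronophthisis, a cystic kidney disease. Anks6 encodes an ankyrin repeat and SAM domain protein that joins inversin and the kinase Nek8 in that compartment. Dnaic1 encodes an intermediate chain of the outer dynein arm, the motor complex of motile cilia, and its loss causes primary ciliary dyskinesia. The colonic epithelium carries no motile cilia, and primary cilia in the gut are known mainly from stromal cells.

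Anks6 (ENSMUSG00000066191) runs on the minus strand of chromosome 4 from 47015669 to 47057427, Invs (ENSMUSG00000028344) on the plus strand from 48279760 to 48431954, and Dnaic1 (ENSMUSG00000061322) on the plus strand from 41569775 to 41638158. All are protein-coding. Invs and Dnaic1 each start beside a gene that runs the other way: 201 bases separate Invs from the start of Erp44, and 236 bases separate Dnaic1 from the start of Fam219a. The RefSeq promoter windows (build GRCm38.p6, which is mm10; 250 bases before to 50 after the start) are shown because each covers the gap, or nearly all of it, between a member and a facing gene whose level can be compared. RefSeq's table here held a window for Invs and Dnaic1, and none for Anks6 or Enho. Capitals mark matches to the patterns described below.
Dnaic1, chr4:41569544-41569843, plus strand: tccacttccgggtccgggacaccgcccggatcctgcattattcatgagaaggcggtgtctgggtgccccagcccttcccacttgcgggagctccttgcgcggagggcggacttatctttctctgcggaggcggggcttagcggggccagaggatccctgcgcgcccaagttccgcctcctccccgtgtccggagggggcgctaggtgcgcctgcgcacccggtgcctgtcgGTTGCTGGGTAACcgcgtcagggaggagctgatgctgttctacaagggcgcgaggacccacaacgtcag
Invs, chr4:48279510-48279809, plus strand: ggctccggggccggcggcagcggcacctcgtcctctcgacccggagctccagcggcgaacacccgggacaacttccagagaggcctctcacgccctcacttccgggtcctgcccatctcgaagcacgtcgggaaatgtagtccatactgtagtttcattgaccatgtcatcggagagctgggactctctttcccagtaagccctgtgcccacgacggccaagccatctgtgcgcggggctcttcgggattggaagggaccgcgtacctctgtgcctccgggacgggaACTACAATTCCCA

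Both patterns are stretches of these windows, 13 bases long with some left free (N), taken after the windows had been read for known motifs, so a match in their own window is given by construction. Both strands of all windows were searched. The pattern GTTGCNNNGNAAC, a form of the X-box that RFX factors bind in promoters of ciliary genes, comes from the Dnaic1 window, near the start of transcription (GTTGCTGGGTAAC). It was present in 225 of 32851 RefSeq windows (0.685%) and not in the Invs window. The pattern ACTACANNTCCCA, a part of a longer site ascribed to the zinc finger factor ZNF143, is the last stretch of the Invs window (ACTACAATTCCCA). It was present in 484 windows (1.47%), and was not in the Dnaic1 window. These are matches of letters, and binding was not measured.

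Anks6 was lower in knockout colons. Its level was 12.7, 12.8, 17.1, 8.89 and 16.3 CPM in KO1 to KO5. It was 19.2, 24.1, 24.2, 61.2 and 78.8 CPM in WT1 to WT5. No knockout library reached the lowest WT library, and WT4 and WT5 lay far above all others. Of all tested rows, 7.22% had genotypes that did not overlap, 4.51% with the knockout below and 2.71% with it above. The mean was 13.5 ± 3.28 CPM in the knockout and 41.5 ± 26.8 CPM in WT (SD, n = 5 each).

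The size of the Anks6 difference depended on the table. Knockout over WT, edgeR gave a log2 fold change of −1.39 ± 0.33 (SE) for both tables together, with the table as a covariate. The first table alone gave −0.63 ± 0.18 and the second −2.47 ± 0.33, a difference between tables of −1.84 ± 0.35. Of the 3 members Anks6 alone was among the 2.05% of all rows called for that difference. The members were chosen with these levels known, so such calls describe them and test nothing. Knockout levels overlapped between the tables, so the larger value came from the WT side, where the second-table libraries held 228 and 291 reads against 71, 95 and 94 in the first. Without WT4, WT5 and the covariate the log2 fold change was −0.71. By genotype within a table, 0 of the 3 members passed in the first (all rows, 6.06%), and Anks6 alone passed in the second (all rows, 0.856%).

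**Figure D1:**
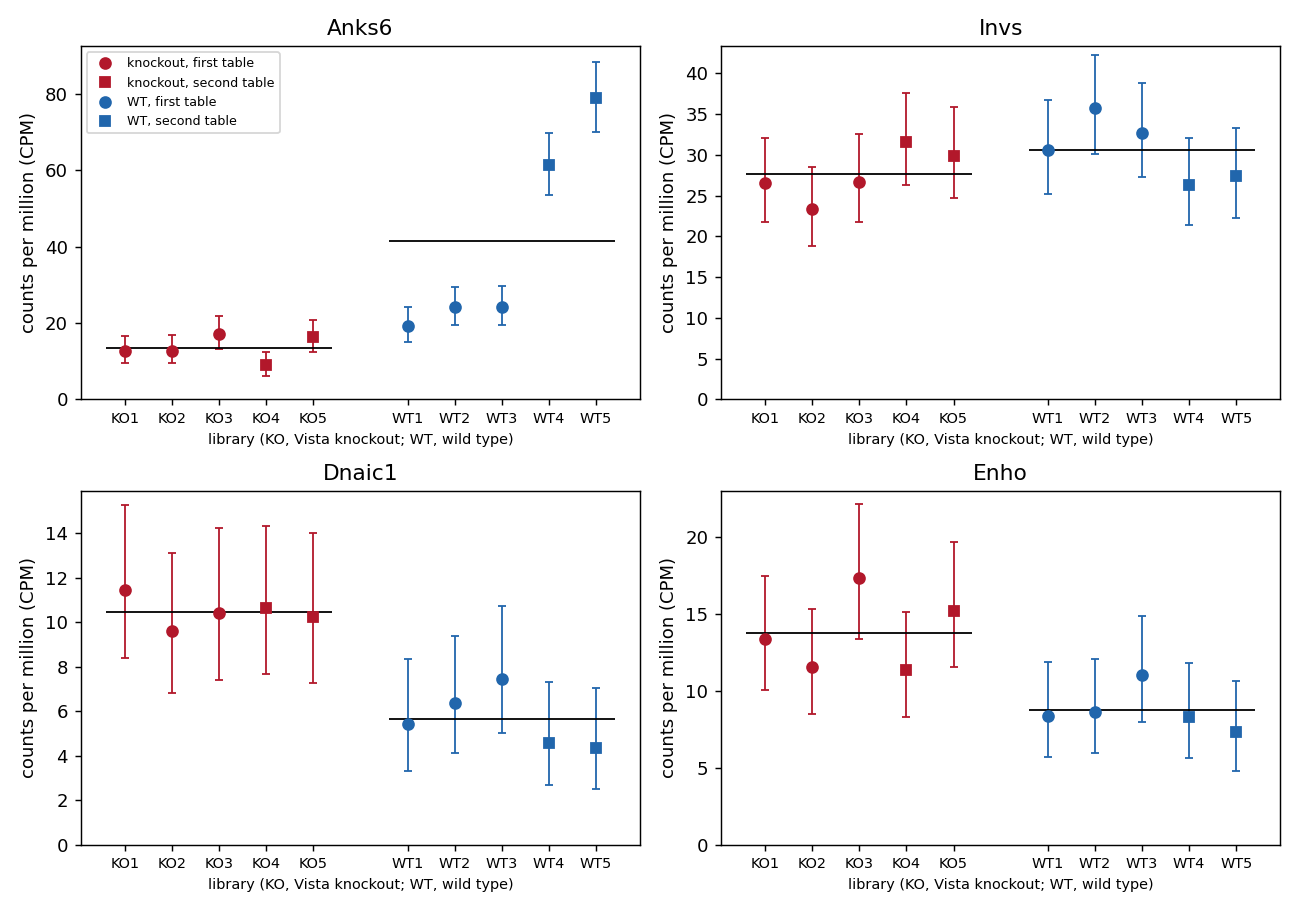
CPM of Anks6, Invs, Dnaic1 and its overlapping neighbour Enho in each library; bars are exact 95% Poisson intervals, which cover counting error only, black lines are group means, circles are the first table and squares the second. Anks6 in WT4 and WT5 stands at 61.2 and 78.8 CPM above every other library, Invs overlaps between genotypes, and Dnaic1 and Enho are higher in all 5 knockout libraries than in any WT library.

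Invs, the partner of Anks6 in the inversin compartment, hardly differed over both tables. It stood at 26.6, 23.3, 26.7, 31.6 and 29.9 CPM in KO1 to KO5. In WT1 to WT5 it stood at 30.6, 35.8, 32.7, 26.3 and 27.4 CPM. The genotypes overlapped over all libraries, but not within a table, since knockouts lay below WT in the first and above WT in the second. The summed level of 8 stromal markers had the same order, at 994 to 1329 CPM in KO1 to KO3 against 1399 to 1837 CPM in WT1 to WT3, and at 1488 to 1724 CPM in KO4 and KO5 against 1109 to 1271 CPM in WT4 and WT5. Col1a2 was the largest part of this sum. By log2 fold change Col1a2, Reck, Lpar1, Sdc2 and Matn2 were lower in first-table knockouts and higher in second-table knockouts. Adamts12 (−1.18 and −1.10) and Col15a1 (−0.61 and −0.13) were lower in both tables, and Svep1 (0.15 and 1.35) was higher in both. All 8 held counts, and the part of stroma in the Invs values was not tested. Non-overlap is common in groups this small, at 30.6% of rows tested for the first table and 44.8% for the second.

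The Invs log2 fold change was −0.12 ± 0.12 (SE) over both tables. It was −0.33 ± 0.13 when the first was fitted alone and 0.20 ± 0.20 when the second was. The difference between tables was 0.53 ± 0.20. Counting error alone gives a coefficient of variation of 9.59% at the knockout counts and 9.28% at the WT counts. The observed values were 11.6% and 12.7%. Spread between libraries of a genotype was thus mostly of the size that counting gives. In the 3' part, 226 bases of Invs exons overlap exons of Tex10 on the other strand, and without a stated strand setting reads there cannot be told apart.

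**Figure D2:**
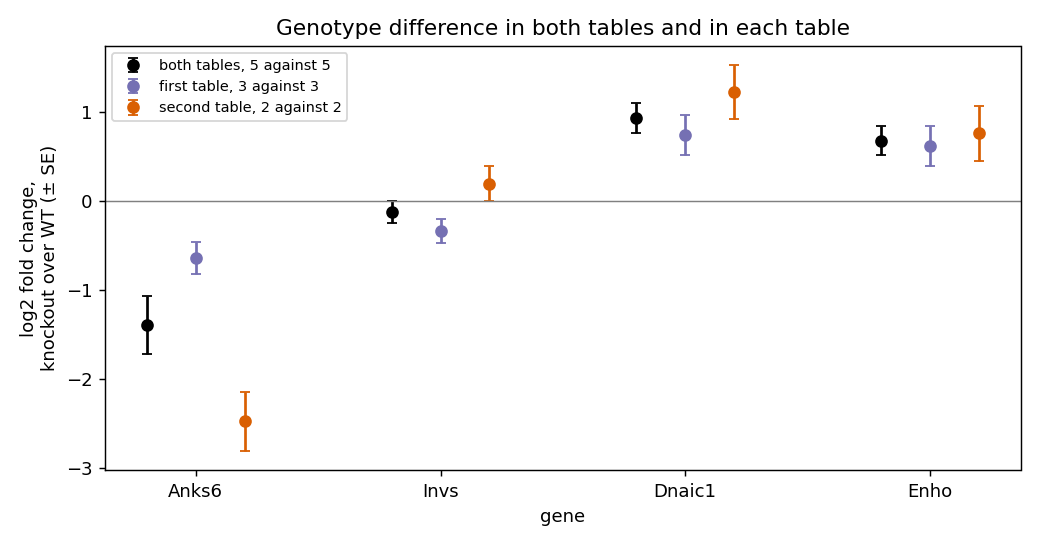
Log2 fold change of knockout over WT from edgeR for Anks6, Invs, Dnaic1 and Enho, with standard errors, for both tables, the first table and the second table. Anks6 moves from −0.63 in the first table to −2.47 in the second, Invs lies on either side of 0, and Dnaic1 and Enho are above 0 in all 3 fits.

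The count of Anks6 per count of Invs within a library does not depend on library scaling. It was 0.48, 0.55, 0.64, 0.28 and 0.54 in KO1 to KO5 and 0.63, 0.67, 0.74, 2.33 and 2.88 in WT1 to WT5. On this ratio KO3 lay slightly above WT1, so first-table genotypes touched, while second-table genotypes stayed far apart. Per kilobase of annotated exon, Invs averaged 2.54 CPM and Anks6 5.14 CPM over all libraries. Anks6 stood at 2.53 CPM per kilobase in knockouts, beside 2.42 for Invs, and at 7.75 in WT, beside 2.67 for Invs.

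Dnaic1 was higher in knockout colons. Its level was 11.4, 9.58, 10.4, 10.6 and 10.2 CPM in KO1 to KO5. In WT1 to WT5 it was 5.41, 6.34, 7.46, 4.57 and 4.33 CPM. Over both tables the lowest knockout library lay above the highest WT library, as in 2.71% of all tested rows. Means were 10.5 ± 0.67 CPM in the knockout and 5.62 ± 1.30 CPM in WT (SD, n = 5 each).

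For Dnaic1 the log2 fold change was 0.93 ± 0.17 (SE) over both tables, with 0.74 ± 0.23 for the first alone and 1.22 ± 0.30 for the second alone. It was 0.72 without WT4, WT5 and the covariate. These levels rest on few reads, 39 to 46 in each knockout and 16 to 29 in each WT library. The 16 reads of WT5 carry an exact 95% Poisson interval of 2.48 to 7.04 CPM and the 46 of KO1 one of 8.37 to 15.2 CPM. The knockout libraries differed among themselves by less than counting gives, with a coefficient of variation of 6.40% where counting alone gives 15.6%.

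Enho encodes adropin, a secreted peptide linked to energy metabolism, and runs from 41638144 to 41640324 on the minus strand. It meets Dnaic1 tail to tail, and their last 15 bases overlap. Enho (ENSMUSG00000028445) stood at 13.4, 11.5, 17.4, 11.4 and 15.2 CPM in KO1 to KO5 and at 8.39, 8.63, 11.1, 8.33 and 7.31 CPM in WT1 to WT5. It too was among the 2.71% of tested rows higher in every knockout than in every WT library. Its log2 fold change was 0.68 ± 0.17 (SE).

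Dnaic1 counts per Enho count were 0.60 to 0.93 in knockout and 0.55 to 0.74 in WT libraries, so the pair kept overlapping ratios. Per kilobase Dnaic1 averaged 2.89 CPM and Enho 8.87 CPM. The sources used here state no strand setting, and reads running past the end of 1 gene into the other cannot be told from reads of the other. The part of such reads in the Dnaic1 difference was not tested.

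Genes next to the 3 members were examined by position. Fam219a, whose start faces that of Dnaic1, had a log2 fold change of 0.10 ± 0.12 (SE, adjusted p 0.636 in edgeR), and Gm12404, which lies within Fam219a on the other strand, 0.22 ± 0.20 (0.558). Cntfr, a cytokine receptor subunit gene on the far side of Enho, had −0.06 ± 0.20 (0.873). Erp44, an endoplasmic reticulum chaperone gene facing Invs, had 0.05 ± 0.07 (0.684), and Tex10, overlapping the end of Invs, 0.21 ± 0.08 (0.134). The pseudogene Gm12435 within an intron of Invs had 0.24 ± 0.16 (0.387). None of these passed.

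Around Anks6, the actin-binding coronin gene Coro2a had 0.04 ± 0.12 (0.868) and the Rab GTPase-activating gene Tbc1d2 0.05 ± 0.11 (0.803). On the other side lies Galnt12, an enzyme gene that starts mucin-type O-glycans. Gm12424, at −0.63 ± 0.35 (0.307), lies within Galnt12 on the same strand, so the 2 are not separate places. Galnt12 fell, at −0.59 ± 0.12 with an adjusted p of 0.0227 in edgeR, from 448 to 647 CPM in WT to 299 to 409 CPM in knockout libraries.

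Among 259 other tested named rows of the chromosome 4 region, the patterns most like each member were ranked by Pearson's r of log2 CPM over the 10 libraries, which share genotype, table and scaling. For Anks6 these were Stx17, a membrane fusion gene of autophagy (r = 0.986), Car8, a carbonic anhydrase-related gene without enzyme activity (0.973), and Galnt12 (0.915). Over the 8 libraries without WT4 and WT5 the values were 0.952, 0.847 and 0.902. Stx17 also neighbours Erp44 before Invs.

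Car8 had the table difference on a larger scale, which its ranking by likeness to Anks6 in these same libraries favours. It stood at 25.2 to 56.1 CPM in the knockout libraries, 42.2, 59.9 and 69.5 in WT1 to WT3 and 225 and 309 in WT4 and WT5. Its log2 fold changes were −0.50 ± 0.23 (SE) for the first table and −3.37 ± 0.22 for the second. Stx17 moved less, with 169 to 214 CPM in knockout libraries, 213 to 229 CPM in WT1 to WT3 and 300.3 and 314.8 CPM in WT4 and WT5. Over both tables its log2 fold change of −0.38 ± 0.11 did not pass (adjusted p 0.0609 in edgeR).

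**Figure D3:**
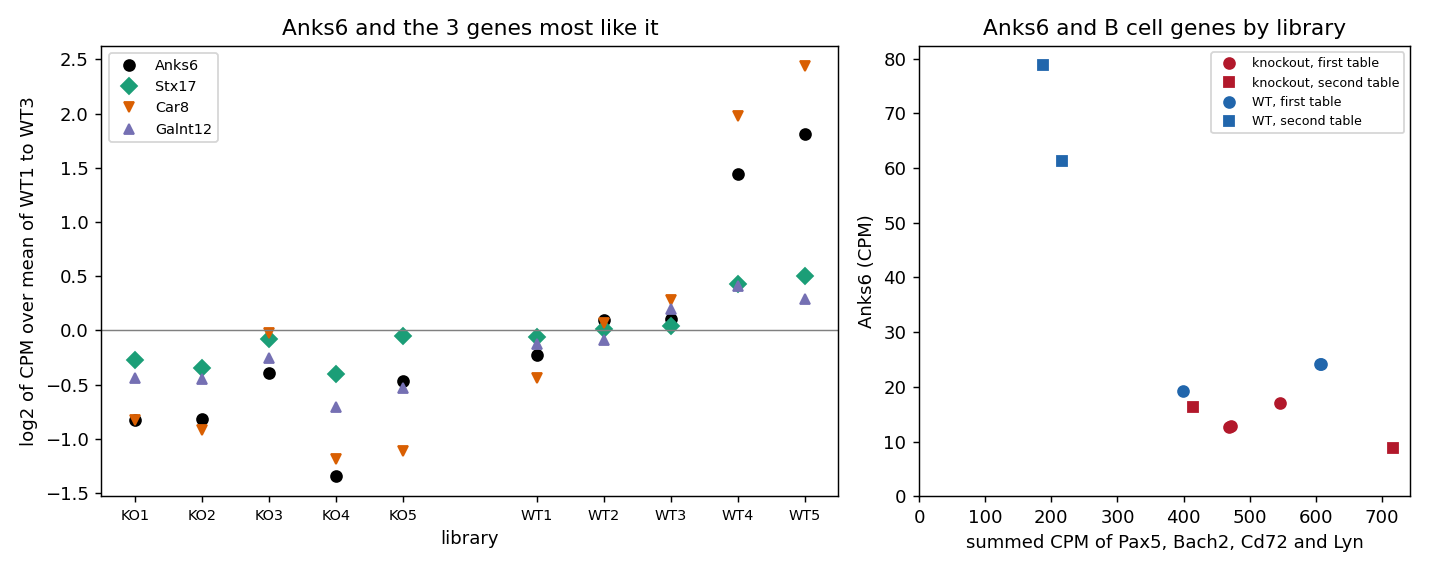
Left, log2 of the CPM of Anks6, Stx17, Car8 and Galnt12 in each library over the mean of WT1 to WT3; right, Anks6 CPM against the summed CPM of the B cell genes Pax5, Bach2, Cd72 and Lyn, with squares for the second table. All 4 genes on the left are above the WT1 to WT3 mean in WT4 and WT5 and below it in all 5 knockout libraries. WT4 and WT5 have the lowest B cell sums, 216 and 187 CPM, and Lyn is the largest part of these sums.

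WT4 and WT5, the libraries where Anks6 was high, also lay outside the range of the others in the B cell marker sum. They did so in no other marker sum. Of 6 B cell markers listed, 4 lie in the regions: Pax5, Bach2, Cd72 and the kinase gene Lyn. Together they gave 216 and 187 CPM in WT4 and WT5, 399 to 607 CPM in WT1 to WT3 and 414 to 717 CPM in knockout libraries. Lyn was the largest part, at 161 to 186 CPM in WT4 and WT5. In the first table Lyn was higher in the knockout, at a log2 fold change of 0.31 ± 0.10 (SE). Pax5 (−0.85 ± 0.25), Bach2 (−0.77 ± 0.17) and Cd72 (−0.70 ± 0.23) were lower there. In the second table all 4 were higher in the knockout. All 4 held counts. The 8 epithelial markers there summed to 8697 to 11790 CPM in WT and 8091 to 10991 CPM in knockout libraries, with overlap in each table. The 3 smooth muscle markers there summed to 1068 to 1875 CPM in WT and 965 to 2104 CPM in knockout libraries, also with overlap in each table. The 3 enteric neuron markers there summed to 561 to 733 CPM in KO1 to KO3 against 311 to 392 CPM in WT1 to WT3. That rise was of Tac1 alone, with first-table means of 573 CPM in knockout and 149 CPM in WT. Penk, at 71.8 against 173 CPM, and Ptprz1, at 14.0 against 18.9 CPM, went the other way. In the second table the sums overlapped, at 229.6 to 280.4 CPM in knockout against 213 to 292 CPM in WT. In whole tissue, fewer cells of a type and less RNA per cell cannot be told apart. The part of cell makeup in the Anks6 difference was not tested.

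Invs was most like Abca1, the cholesterol exporter gene (r = 0.880), Rragd, a Rag GTPase gene of nutrient sensing (0.860), and Tmem38b, an intracellular cation channel gene (0.837). Of these, Abca1 had a log2 fold change of −0.03 ± 0.22 (SE), Rragd −0.37 ± 0.28 and Tmem38b −0.23 ± 0.13, and 0 of them passed in edgeR. Dnaic1 was most like Tmem64, a membrane protein gene of calcium signalling (0.900), Enho (0.890) and Lyn (0.823). Without WT4 and WT5 those values were 0.759, 0.830 and 0.541, with the largest drop for Lyn. Tmem64 stood at 79.0 to 123 CPM in knockout libraries, 73.6 to 78.2 in WT1 to WT3 and 44.3 and 43.6 in WT4 and WT5. Anks6 and Dnaic1 ran opposite to each other (r = −0.879), and Invs followed neither (−0.07 with Anks6 and −0.12 with Dnaic1). The opposite genotype differences of Anks6 and Dnaic1 were known when they were chosen. Their r carries those differences and is not a separate result.

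The wider ciliary programme was read from 5 lists covering the inversin compartment and nephronophthisis, dynein arms, motile cilium structure, primary cilium and basal body, and hedgehog signalling. Of their 113 other symbols, 18 lie in regions where names can be used, 11 on chromosome 4 and 7 in shorter stretches of chromosomes 6 and 15. Those stretches rest on 4 of 5 and 5 of 6 widely used genes. Nek8 lies elsewhere and was not used here. Of the 18, 11 were tested, and 0 rose and 0 fell in edgeR over both tables, against 5.63% of all rows. At an unadjusted p under 0.05 there were 2. The share of all rows at that level was not taken, so these 2 are not a result about the lists. DESeq2 called 0 of the 11, and 837 rows in all.

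The median log2 fold change of the 11 was 0.02, with 6 above and 5 below 0, and that of all tested rows was also 0.02. Among genes of the primary cilium, Tmem67, a transition zone protein gene mutated in Meckel syndrome, had 0.28 ± 0.14 (SE, adjusted p 0.260 in edgeR). Kif24, a centriolar kinesin gene, had 0.42 ± 0.18 (0.197), with KO4 highest at 40.0 CPM and the other libraries at 18.8 to 33.4 CPM. Smo, the hedgehog signal transducer gene on chromosome 6, had 0.34 ± 0.11 (0.107), at 93.6 to 132 CPM in knockout and 69.8 to 99.4 CPM in WT libraries. Kif24 and Smo were the pair with an unadjusted p under 0.05.

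Ankrd6, a basal body and Wnt pathway gene, had −0.55 ± 0.25 over both tables (adjusted p 0.222 in edgeR). It fell in the first table alone, with −0.999 ± 0.26 and an adjusted p of 0.0495 in edgeR. It was the 1 list gene of 11 called there, where 6.06% of all rows were called. Its levels were 4.72, 4.18 and 7.22 CPM in KO1 to KO3 against 12.4, 10.7 and 9.78 CPM in WT1 to WT3. In the second table knockouts had 7.65 and 12.9 CPM and WT 9.94 and 9.75 CPM, a log2 fold change of 0.06 ± 0.35 (0.968). The test of the difference between tables did not pass (adjusted p 0.263 in edgeR).

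Other primary cilium genes lay near 0. Fam92a, a basal body protein gene, had 0.02 ± 0.12 (SE), Topors, a centrosomal ubiquitin ligase gene, 0.03 ± 0.10, and 2610301B20Rik, a retinal cilium gene, 0.07 ± 0.11. The dynactin subunit gene Dctn3 had −0.04 ± 0.07, and Dync1i1, a cytoplasmic dynein chain gene on chromosome 6, −0.08 ± 0.24. Their adjusted p values in edgeR ran from 0.722 for 2610301B20Rik to 0.930 for Fam92a. For Dync1i1 the tables went opposite ways, with 0.33 ± 0.23 in the first and −0.72 ± 0.34 in the second, where KO4 and KO5 had 7.16 and 7.08 CPM and WT4 and WT5 9.13 and 14.4 CPM. That difference between tables, −1.04 ± 0.39, did not pass (unadjusted p 0.0216, adjusted p 0.232 in edgeR).

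**Figure D4:**
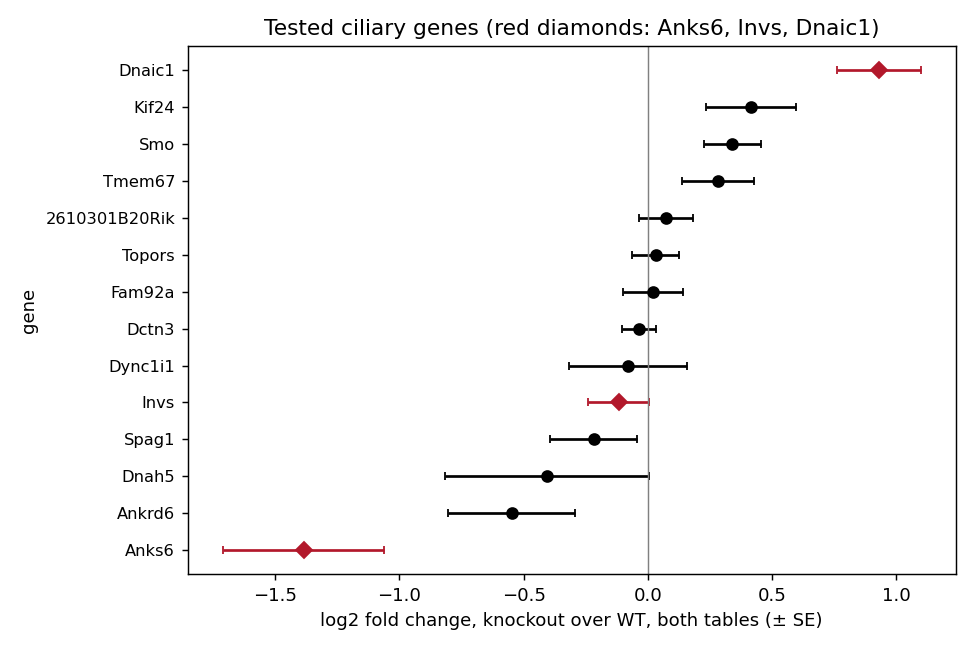
Log2 fold change of knockout over WT over both tables, with standard errors, for the 3 members (red diamonds) and the 11 other ciliary genes tested (black). Anks6 at −1.39 and Dnaic1 at 0.93 are the outermost points, and the 11 others lie between −0.55 and 0.42. Members were chosen with these levels known, so the outer place of Anks6 and Dnaic1 is not a separate result.

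Most genes of motile cilia in the regions held few reads. Dnah5, an outer arm dynein heavy chain gene on chromosome 15 with 141 reads in all, had a log2 fold change of −0.41 ± 0.41 (SE, adjusted p 0.580 in edgeR), and Spag1, a dynein assembly gene also there with 628 reads, −0.22 ± 0.18 (0.480). Per kilobase Dnah5 averaged 0.235 CPM and Spag1 1.46, beside 2.89 for Dnaic1. Over all 10 libraries Spag8 had 50 reads, Ropn1l 47, Ccdc180 40, Cfap206 36, Iqub 14, and Fam166b and Rgs22 12 each, too few for the test.

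Cfap206, a radial spoke gene, had 2, 0, 1, 2 and 2 reads in KO1 to KO5 and 2, 11, 3, 9 and 4 in WT1 to WT5. Of 12 multiciliated cell markers, 4 besides Dnaic1 lie in the regions: Dnah5, Spag8, Cfap206 and Ccdc180. All 4 held counts, and together they gave 3.21 to 7.35 CPM in knockout and 6.22 to 9.67 CPM in WT libraries. That sum leaned to WT, opposite to Dnaic1, and the genotypes overlapped in it. Foxj1, the switch gene of multiciliated cells, lies outside the regions and was not used here.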

How the data were processed

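RNA sequencing libraries of whole colon were compared, 5 Vista knockout and 5 WT. The authors deposited unnormalized read counts per Ensembl gene in 2 tables of 55416 rows. Per the submitters' processing notes, reads were aligned with HISAT2 (2.2.1 for the first table) and counted with featureCounts 2.0.1. For the first table those notes give a human build, GRCh38, and for the second mm10. Annotation and strand setting: not given in the sources used here. GENCODE M21 named 52083 rows. The 3333 unnamed rows stayed in totals and tests.

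CPM used column totals. The genotype test on counts used edgeR 4.0.16 and R 4.3.3 (TMM scaling, expression filter, quasi-likelihood test, Benjamini-Hochberg adjustment over all rows, threshold 0.05), with the table as a covariate over both tables, in each table alone, and as an interaction. Standard errors are the log2 fold change over the square root of F. The script was tested on simulated data. Exonic length is the union of M21 exons. Regions of chromosomes 6 (to 30 Mb) and 15 (11 to 38 Mb) were bounded by hand.

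Named genes were the members, Enho, list genes with 50 reads or more (others by name), 2 tested neighbours on each side, and the 3 rows most like each member by Pearson's r of log2(CPM + 0.5). Galnt12 is named by both of the last rules, and marker genes are given mainly as their sum. Single markers that differ from their sum, the reads of Cfap206, and the likeness without WT4 and WT5, were added after values were seen. Members and lists were chosen with earlier results of these data known. Alternatives were DESeq2 1.42.0, RLE scaling, no filter, no covariate, single libraries left out, and scaling within the chromosome 4 region. Another left out WT4, WT5 and the covariate together.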

Additional observations from a re-analysis of the deposited data

Results flagged for a closer look

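Among 66 groups of 5 libraries examined for 1 library apart from the rest, 4 had one, where chance at 1 in 20 gives 3.3. In WT3, 2610301B20Rik was lowest of its genotype at 28.0 CPM, and in WT1 Smo was lowest at 69.8 CPM while Cntfr was highest at 10.6 CPM. In KO3, Car8 was highest of its genotype at 56.1 CPM.

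The test of the difference between tables passed in 5 of the named and marker genes, and in 2.05% of all tested rows. Car8 had been ranked by its likeness to Anks6, so it is not a separate case. The log2 fold change in the second table minus that in the first was −1.84 for Anks6 and −2.86 for Car8, and 4.58 for Pax5, 3.10 for Bach2 and 3.08 for Cd72, the B cell genes, with knockout libraries of Anks6 overlapping between tables and WT libraries not. For Invs every knockout library lay below WT in the first table and above it in the second, a difference of 0.53. These differences were seen before the genes were chosen or ranked, so no p-value is given for them.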

How the results depend on the processing

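No paired analysis was possible because nothing in the labels ties a knockout library to a WT library. Over 18 alternatives Anks6 stayed lower in the knockout (log2 −2.47 to −0.63) and Dnaic1 higher (0.72 to 1.22), but the calls were less stable than the directions. Anks6 did not pass in 8 of the 18 and Dnaic1 in 3: neither without WT4 and WT5 and the covariate or in the first table alone, Dnaic1 in the second table alone, and Anks6 without KO1, KO2, KO5, WT2, WT4 or WT5. Leaving out single libraries gave −1.55 to −1.09, 0.87 to 1.02 and, for Invs, −0.18 to −0.06. Invs turned to 0.20 in the second table alone. The count of rows called over both tables was 837 with DESeq2, 1260 with no filter on low counts, 78 without WT4 and WT5 and the covariate, and 226 (without WT4) to 990 (without KO5) with 1 library left out; it also moved by over 1.5 times without KO1, KO2, WT1, WT2 or WT5 (237 to 314). In the first table it was 1322 with no filter and 158 (without WT2) to 456 (without KO3) with 1 left out. In the second it was 439 with DESeq2, 2 with no filter and 0 to 5 with 1 left out, where the lone library of a genotype is assumed to vary like the others. For the difference between tables it was 344 with DESeq2 and 717 with no filter. Of the other ciliary genes, 1 was called with no filter (Cfap206, lower) and 0 to 1 with a library left out (Ankrd6, lower, without KO5). The cause of these changes was not tested. Depth limits Dnaic1, at 313 reads in all libraries.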
